A study of Mus musculus with 38 samples.

Results

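The comparison set wild type mouse retina at 18 months of age, the oldest age of the series, against wild type retina at 1 month, the youngest, for the transcripts that took the most reads. A transcript was counted as abundant when its mean over the 3 libraries of each age (6 in all) was at least 50 CPM (counts relative to the library total after median-ratio scaling of the libraries). This kept 3859 of the 142699 Ensembl transcripts in the deposited table, of which 99045 had a count in any of 15 libraries. The choice used the mean over both ages and not the difference between them. A transcript could still pass through its level at 1 age alone. Of those named below, ENSMUST00000202909 had a mean of 46 CPM at 1 month and ENSMUST00000034510 48.4 CPM at 18 months. The number that passed in this way was not counted. The transcripts just inside the limit had means of 50.004, 50.042 and 50.051 CPM, and those just outside it 49.985, 49.996 and 49.997 CPM.

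The study measured RNA in whole retina from Kdm3b wild type mice at 1, 6, 12 and 18 months and from mice heterozygous for Kdm3b at 12 months, with 3 libraries per group. The KDM3B protein is a histone demethylase that acts on methylated lysine 9 of histone H3, a mark of silent chromatin. The groups compared here carry the wild type genotype only and no treatment is given for them. Strain, sex, number of animals per library and whether replicates are separate animals are not given in the sources used here, so p-values measure the spread between these libraries. In the whole series 38 samples are listed, and 4 single-cell and 19 chromatin samples were not analysed here.

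The neural retina holds rods, cones, the interneurons of the inner retina, ganglion cells and Müller glia. Rods outnumber every other cell in the mouse retina, so photoreceptor messages make up a large part of its RNA. At the youngest age used here the retina is already formed and responds to light. Later ageing is known for slow loss of photoreceptors and synapses and for activation of glia and microglia. In whole tissue, fewer cells of a type and less RNA per cell cannot be told apart.

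The deposited table names each row by an Ensembl transcript identifier. None of these identifiers matched the reference tables of gene names (0 matches), so no transcript is given a gene name, a length, a position or a sequence. The retinal identity of the libraries could not be checked against marker genes, and lists of retinal pathways, other cell types and lens, pigment epithelium or blood markers could not be run. Only 2 transcripts higher and 2 lower at 18 months are named by identifier, with the 2 that took the most reads. Levels of different transcripts are counts, not corrected for length, and are not compared as amounts of RNA molecules.

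Total counts in the 6 libraries ran from 17169253 to 19826859, so depth was nearly even between the ages. Some libraries detected few transcripts in spite of that depth. Replicates 2 and 3 at 1 month and replicate 1 at 18 months lacked any read for 24.95%, 20.16% and 18.77% of those transcripts whose mean count over the 15 libraries was 20 or more. In replicate 1 at 1 month and replicates 2 and 3 at 18 months that share was 7.911%, 6.005% and 9.249%. Libraries above 15% are called low-detection libraries below, and they were 2 of 3 at 1 month and 1 of 3 at 18 months.

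Abundant transcripts were nearly complete in all 6 libraries. The number at 0 reads was 5, 37 and 20 in replicates 1 to 3 at 1 month and 25, 7 and 10 in replicates 1 to 3 at 18 months, out of 3859. Among the other transcripts tested, the share at 0 reads in these libraries ran from 11.06% to 41.54%. At least 1 of the 6 libraries was at 0 for 83 of the 3858 abundant transcripts tested (2.15%), and 0 of them were at 0 in all 3 libraries of either age. One abundant transcript was left out by the filter on low counts: it held 282 and 108 CPM in replicates 2 and 3 at 1 month and had 0 reads in the other 4 libraries.

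The abundant transcripts took 65.55%, 67.24% and 67.91% of all counts in the 3 libraries at 1 month. At 18 months they took 65.28%, 66.12% and 66.07%. The 95% Wilson intervals of these shares were at most 0.045 percentage points wide and cover counting error only. The age means were 66.9% ± 1.22 and 65.82% ± 0.471 (SD, n = 3 each), and the ranges overlapped (two-sided exact permutation p = 0.3, where 3 against 3 cannot go below 0.1). The 10 transcripts with the most reads took 8.962% ± 1.14 at 1 month and 8.18% ± 0.737 at 18 months, also with overlapping ranges (two-sided exact permutation p = 0.4). Over the 3 such measures tested, the third being the share of abundant transcripts at 0 reads, the Benjamini-Hochberg adjusted values were 0.6, 0.6 and 0.7.

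ENSMUST00000032471, the transcript with the most reads, was at 17900, 28500 and 29200 CPM in replicates 1 to 3 at 1 month and at 18200, 17700 and 17700 CPM at 18 months. Replicate 1 at 1 month lay within the range of the 18-month libraries, and the low-detection libraries at 1 month lay far above them. Its fitted log2 fold change was -0.50 with a standard error of 0.268 (edgeR adjusted p 0.787). Within the low-detection libraries the difference was -0.66 on the log2 scale, and within the others it was -0.02. ENSMUST00000010205, the next by reads, was also lowest in replicate 1 among the libraries at 1 month: 11300, 18800 and 18600 CPM at 1 month and 10900, 10400 and 10300 CPM at 18 months. Here the groups did not overlap, with a log2 fold change of -0.62, a standard error of 0.257 and an edgeR adjusted p of 0.76. Within the low-detection libraries the difference was -0.78, and within the others it was -0.13. At 6 months both transcripts were again lowest in replicate 1, at 13500 against 31100 and 30100 CPM and at 10000 against 17900 and 19300 CPM, and replicate 3 of that age is not a low-detection library. The same held at 12 months, at 16900 against 22700 and 23100 CPM and at 7810 against 11900 and 12300 CPM. That age has 0 low-detection libraries. At 18 months replicate 1 was the highest for both. The cause was not tested.

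Libraries of the same age were not always the nearest to each other over the abundant transcripts. Replicate 1 at 1 month was over 2-fold apart from replicates 2 and 3 of its own age for 12.8% and 9.33% of the 3859 transcripts. From replicates 1, 2 and 3 at 18 months it was that far apart for 5.36%, 3.39% and 3.76%. Replicate 1 at 18 months was likewise nearer to that 1-month library (5.36%) than to replicates 2 and 3 of its own age (8.16% and 8.53%). Replicates 2 and 3 at 18 months were the closest pair, at 0.751%, and replicates 2 and 3 at 1 month came to 5.52%. The median was 8.34% over the 6 pairs of the same age and 12% over the 9 pairs of different age. Spearman's rho across transcripts ran from 0.626 to 0.965 over the 15 pairs.

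**Figure D1:**
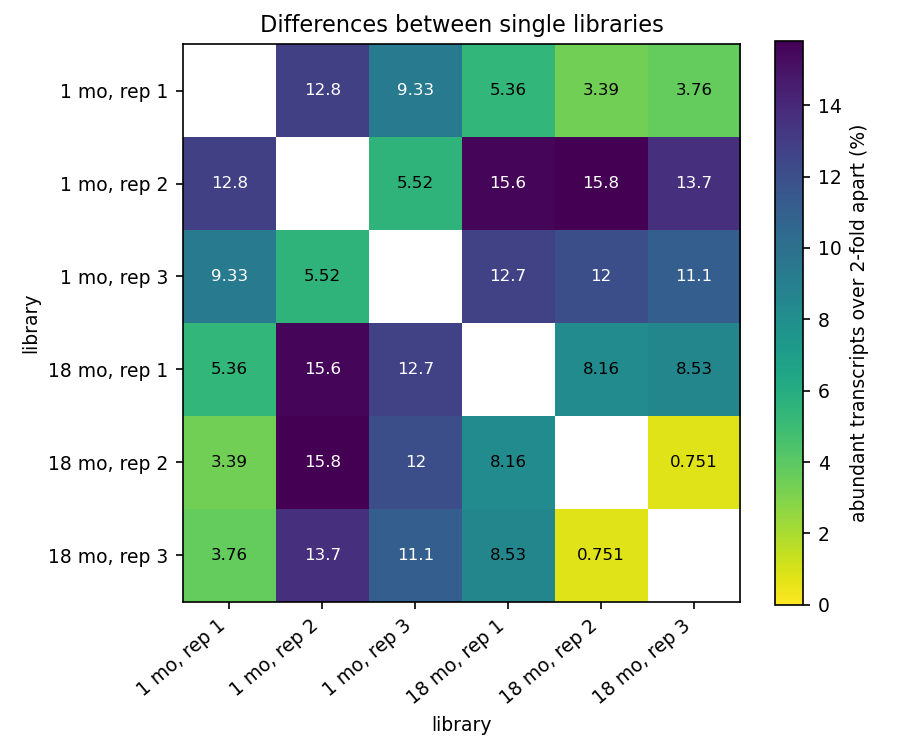
Share of the 3859 abundant transcripts, in percent, that were over 2-fold apart between each 2 of the 6 libraries (1 and 18 months, replicates 1 to 3), on log2(CPM + 1). Replicate 1 at 1 month is nearer to the 18-month libraries (3.39% to 5.36%) than to its own age (9.33% and 12.8%).

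The closest pair still differed by far more than counting noise. A chi-square per transcript, which is near 1 for counting noise alone, averaged 23 between replicates 2 and 3 at 18 months and 91.1 between replicates 2 and 3 at 1 month. No library was therefore merged with another. The median SD between replicates was 0.26 at 1 month and 0.20 at 18 months on the log2 scale, and 2319 of 3858 transcripts (60.1%) had the larger SD at 1 month. For all 53514 transcripts tested the median SDs were 0.60 and 0.44. An SD above 1 on the log2 scale was found for 187 abundant transcripts at 1 month and for 114 at 18 months.

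The comparison asks which messages differ between the oldest and the youngest retina. In edgeR's quasi-likelihood test over all 15 libraries, 0 of the 3858 abundant transcripts tested passed a Benjamini-Hochberg adjusted p of 0.05, where 1 of all 53514 transcripts passed (0.00187%). The lowest adjusted p of an abundant transcript was 0.34. An unadjusted p under 0.05 was held by 459 abundant transcripts (11.9%), against 6.53% of all transcripts tested. Of these 459, 124 were higher and 335 lower at 18 months. DESeq2 called 9 of 3855 abundant transcripts, 5 higher and 4 lower, a smaller share than the 0.823% of all transcripts it tested. All 9 had groups that did not overlap, as 23.1% of the abundant transcripts tested did. That overlap was judged on libraries that also gave the calls. Of the 9, 0 had a library at 0 reads. In DESeq2, 214 abundant transcripts (5.55%) had an unadjusted p under 0.05, nearly the same as the 5.57% of all it tested. limma voom with library weights called 0, and 0.00561% of all. There 900 abundant transcripts (23.3%) had an unadjusted p under 0.05, against 12.1% of all tested.

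The 1 transcript that passed over the whole table, ENSMUST00000152103, had a mean of 45.8 CPM and so lay under the abundance limit. It was at 122, 87.9 and 64.9 CPM at 1 month and at 0 reads in the 3 libraries at 18 months, at least 581-fold lower against a floor of 3 counts per library (edgeR adjusted p 0.0165). It was present at 6 and 12 months, at 63.4, 94.3 and 22.2 CPM and at 47.8, 88 and 99.1 CPM. The count of calls without single libraries is given under the processing alternatives. In estimated counts, a 0 can also arise when reads are assigned to an overlapping transcript.

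Fold changes of the abundant transcripts were small. The middle 50% of fitted log2 fold changes lay between -0.34 and 0.17, and 90% lay between -0.72 and 0.74. The median was -0.11, against 0.10 over all transcripts tested, and the median standard error was 0.27. The fitted value was lower at 18 months for 2365 transcripts (61.3%) and higher for 1493 (38.7%). On group means the median log2 ratio was -0.11 with the scaling used, -0.085 with TMM and -0.095 with size factors from the 6 libraries alone, so its sign held under each scaling. Its size differed by kind of library: the median log2 difference was -0.13 within the low-detection libraries and -0.026 within the others. In these values kind of library and replicate number cannot be told apart. A fitted change of 2-fold or more was found for 161 transcripts (4.17%), 90 higher and 71 lower.

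**Figure D2:**
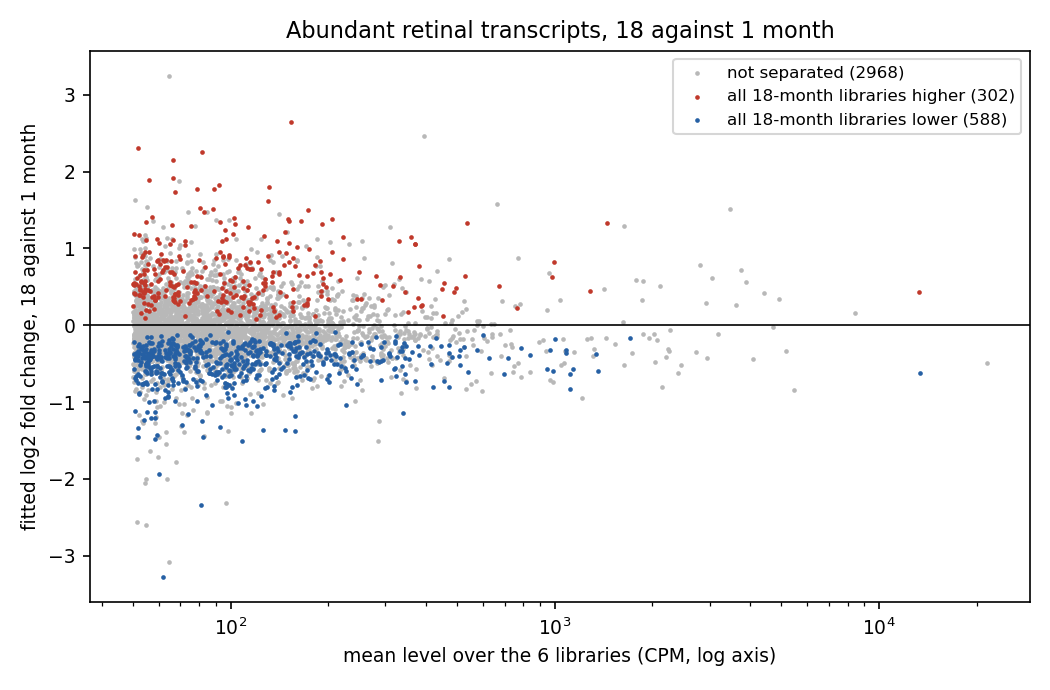
Fitted log2 fold change (18 against 1 month) against the mean level over the 6 libraries (CPM, log axis) for 3858 abundant transcripts, coloured by whether all 3 libraries of 1 age lay above all 3 of the other. The 302 separated higher and 588 separated lower transcripts lie on both sides of 0, most of them within 2-fold.

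All 3 libraries at 18 months lay above all 3 at 1 month for 302 abundant transcripts (7.83%), where 8.99% of all transcripts tested did. They lay below for 588 (15.2%), where 4.75% of all transcripts tested did. The separated transcripts that were higher had a median log2 fold change of 0.56, and 54 of the 302 reached 2-fold. Those that were lower had a median of -0.43, and 30 of the 588 reached 2-fold. With TMM scaling the separated transcripts were 188 higher and 682 lower, so the higher share went from 33.9% to 21.6%, and with size factors from the 6 libraries alone it was 31.6%. The excess of lower over higher held under each of these scalings.

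The share separated and lower was larger in the middle classes of level than in the first. It was 13.6% of 2252 transcripts at 50 to 100 CPM, 16.5% of 1070 at 100 to 200 CPM, 19.9% of 397 at 200 to 500 CPM, 20.3% of 74 at 500 to 1000 CPM and 15.4% of 65 at 1000 CPM or more. The share separated and higher was 7.28%, 9.25%, 7.56%, 8.11% and 4.62% in the same order. The median log2 fold change went from -0.09 in the first class to -0.20 and -0.19 in the last 2. The median SD between replicates was 0.28, 0.24, 0.23, 0.23 and 0.32, so the spread was not smallest at the highest level.

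**Figure D3:**
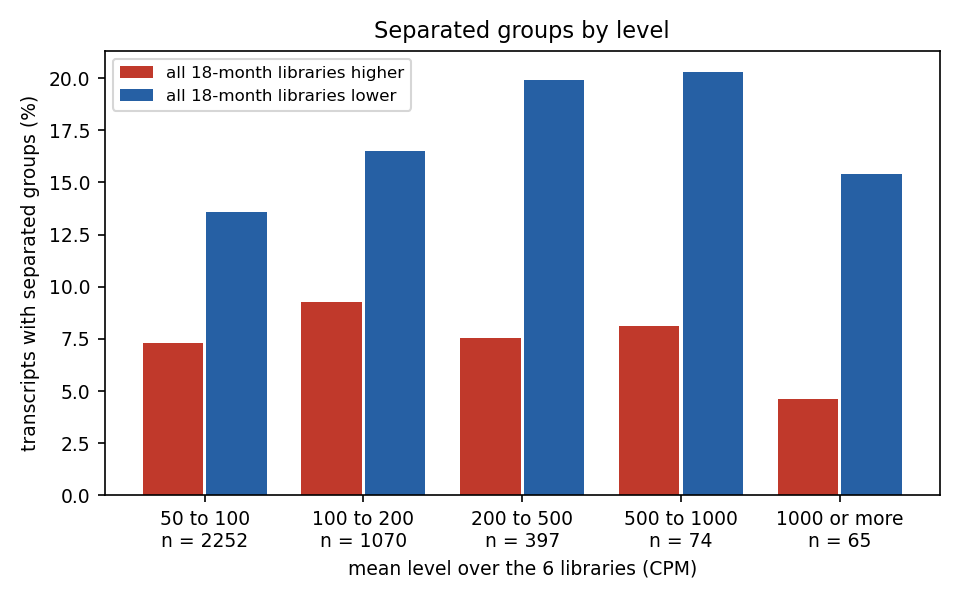
Share of abundant transcripts (percent) with all 18-month libraries higher or all lower than the 1-month libraries, by mean level over the 6 libraries (CPM), with the number of transcripts per class. The lower share is the larger in all 5 classes, from 13.6% to 20.3%.

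Transcripts with whole expected counts were examined apart, because their counts hold no fraction from dividing reads between transcripts. A whole count does not by itself show that no read was shared, and read assignments were not examined. Of the abundant transcripts tested, 224 (5.81%) had whole counts, within 0.01, in all 6 libraries. Their median SD between replicates was 0.19 at 1 month and 0.18 at 18 months, and in the 3634 others it was 0.26 and 0.21. Groups were separated for 62 of the 224 (27.7%), 9 higher and 53 lower, and for 22.8% of the others, 293 higher and 535 lower. Over all 53514 transcripts tested the share was 13.7%, 4809 higher and 2540 lower. It was not counted over all whole-count transcripts. The median log2 fold change was -0.18 for the 224 and -0.11 for the other abundant transcripts. When whole-count transcripts were fitted alone, edgeR called 0 of the 224, and 31 had p under 0.05 before adjustment, against 9.4% of the 4481 transcripts in that fit.

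ENSMUST00000108817, the higher transcript with the lowest p, was at 87.9, 98.5 and 85.8 CPM at 1 month and at 168, 291 and 310 CPM at 18 months. The groups did not overlap, and the low-detection library at 18 months was the lowest of its age. Its log2 fold change was 1.5 with a standard error of 0.236, or 2.82-fold (edgeR adjusted p 0.34). At the ages between, it was at 167, 171 and 150 CPM at 6 months and at 147, 194 and 211 CPM at 12 months, which overlapped each other. All 6 of those libraries lay above the 3 at 1 month. Without replicate 1 at 18 months it passed edgeR's test with a log2 fold change of 1.73 (adjusted p 0.0257). The adjusted p spanned 0.000981 (DESeq2) to 1 over all alternatives.

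ENSMUST00000202909 was at 68.3, 28.2 and 41.4 CPM at 1 month and at 135, 128 and 130 CPM at 18 months. The 18-month libraries lay close together, and the highest and lowest at 1 month were more than 2-fold apart. Its log2 fold change was 1.51 with a standard error of 0.255 (edgeR adjusted p 0.34). Group means stood in order of age, the middle ones being 82.4 ± 10.9 CPM (6 months) and 111 ± 14.2 CPM (12 months, SD, n = 3 each). The 6-month and 12-month libraries did not overlap. Without replicate 1 at 1 month it passed edgeR's test with a log2 fold change of 1.91 (adjusted p 0.0016). It also passed DESeq2 (adjusted p 0.00221), and its adjusted p spanned 0.0016 to 1 over the alternatives.

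ENSMUST00000034510, the lower transcript with the lowest p, was at 83.9, 130 and 131 CPM at 1 month and at 51.9, 45.6 and 47.6 CPM at 18 months. The groups did not overlap, and replicate 1 at 1 month was the nearest to the older retina. Its log2 fold change was -1.25 with a standard error of 0.207, or 2.37-fold lower (edgeR adjusted p 0.34). It was at 67, 94.1 and 91 CPM at 6 months and at 58.3, 71.4 and 68.5 CPM at 12 months, so each older mean was the lower one, while neighbouring ages up to 12 months overlapped. Without replicate 1 at 1 month it passed edgeR's test with a log2 fold change of -1.43 (adjusted p 0.00839), and its adjusted p spanned 0.00158 (DESeq2) to 1 over the alternatives.

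ENSMUST00000024575 was at 160, 186 and 172 CPM at 1 month and at 86.3, 100 and 113 CPM at 18 months, again without overlap. The spread within each age, 13.3 and 13.4 CPM (SD), was small beside the gap. Its log2 fold change was -0.79 with a standard error of 0.163 (edgeR adjusted p 0.76). The middle ages overlapped, at 138 ± 18.2 CPM (6 months) and 133 ± 6.72 CPM (12 months, SD, n = 3 each). Its adjusted p spanned 0.0437 (DESeq2) to 1 over the alternatives.

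**Figure D4:**
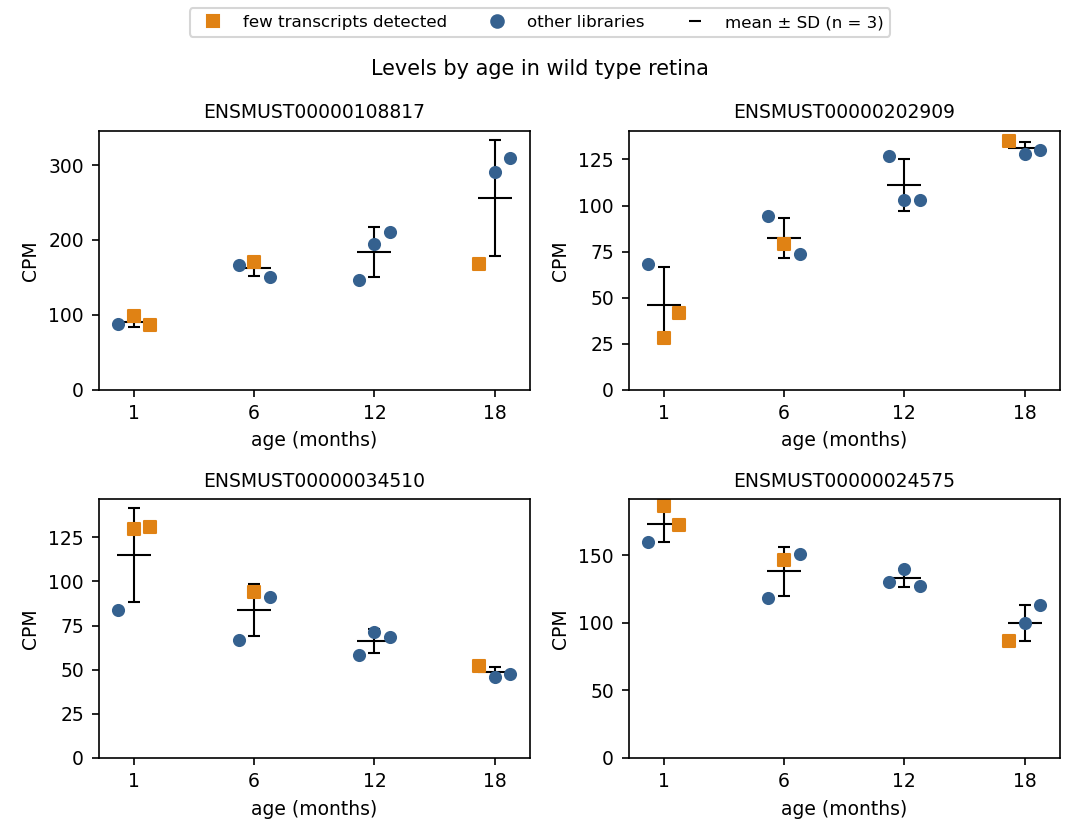
Levels (CPM) of 4 abundant transcripts in each wild type library at 1, 6, 12 and 18 months, with the mean ± SD (n = 3); squares mark low-detection libraries. The 1-month and 18-month libraries do not overlap in any panel, and the means at 6 and 12 months lie between them.

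Because low-detection libraries fell unevenly on the ages, the age difference was also taken within each kind of library. The low-detection libraries gave replicate 1 at 18 months against replicates 2 and 3 at 1 month. The others gave replicates 2 and 3 at 18 months against replicate 1 at 1 month, so no library is shared. Each difference thus also sets replicate 1 against replicates 2 and 3, in opposite directions, with a single library at 1 of the ages. Kind of library and replicate number cannot be told apart in these 2 differences. Both differences had the same sign for 1973 of 3858 abundant transcripts (51.1%): 741 were higher and 1232 lower at 18 months in both. Of the rest, 1068 were higher in the other libraries and lower in the low-detection libraries, and 816 were the reverse. Over all 53514 transcripts tested the share with the same sign was 43.4%. Spearman's rho of the 2 differences across the transcripts was -0.0566. The median size of the difference was 0.24 on the log2 scale in the other libraries and 0.39 in the low-detection libraries.

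A difference of 2-fold or more in the same direction in both kinds of library was found for 18 abundant transcripts (0.467%), 13 higher and 5 lower, against 3.00% of all transcripts tested. In a single kind of library it was found for 132 transcripts (3.42%) in the other libraries and 511 (13.2%) in the low-detection libraries. The 4 transcripts named above had the same sign in both. ENSMUST00000108817 differed by 0.86 in the low-detection libraries and 1.76 in the others, ENSMUST00000202909 by 1.95 and 0.90, ENSMUST00000034510 by -1.31 and -0.84, and ENSMUST00000024575 by -1.04 and -0.58. They had been picked for groups that do not overlap, which fixes that direction. With the kind of library as a term in the fit, edgeR called 0 abundant transcripts. In that fit 299 (7.75%) had p under 0.05 before adjustment, against 5.88% of all tested.

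**Figure D5:**
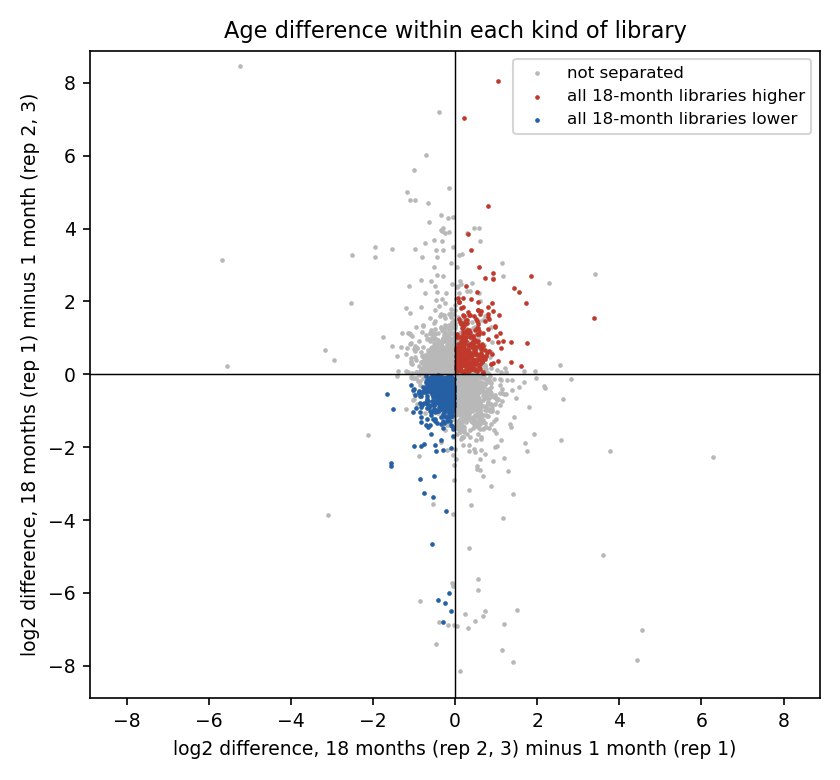
Age difference (log2(CPM + 1), 18 minus 1 month) of 3858 abundant transcripts within the low-detection libraries (vertical) against that within the other libraries (horizontal). The points fall in all 4 quadrants, 51.1% of them in the 2 where both differences have the same sign.

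Single libraries decided the count of calls. Without replicate 1 at 1 month, edgeR called 221 of all 59148 transcripts tested (0.374%). Among the 3859 abundant ones 15 passed, a share close to that over all transcripts. Of these 15, 9 were higher and 6 lower at 18 months. Groups did not overlap over all 6 libraries for 12 of them, judged largely on the libraries that gave the calls. In 2 of the 15 both remaining libraries at 1 month had 0 reads and none at 18 months did, and 1 of the 15 had 0 reads in every 18-month library. That setting leaves only low-detection libraries at 1 month. Without replicate 1 at 18 months 2 passed, both higher, against 0.00858% of all. With any other of the 6 libraries left out edgeR called 0, and 206 to 246 (5.34% to 6.37%) had p under 0.05 before adjustment, against 4.15% to 5.47% of all tested. Dropping all low-detection libraries leaves a lone 1-month library, whose spread is then borrowed from the other groups. In that fit edgeR called 0, and 128 (3.32%) had p under 0.05 before adjustment, close to the 2.94% of all tested.

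The 6-month and 12-month libraries take no part in choosing the separated transcripts and gave a look at them on other libraries. Of the 302 that were higher at 18 months, 196 (64.9%) were also higher at 12 months than at 6 months, with a median log2 fold change of 0.17. Of the 588 that were lower, 215 (36.6%) were higher at 12 months, with a median of -0.10. Over all 3858 abundant transcripts the share was 45.6% and the median -0.04. The 6-month group holds 1 low-detection library and the 12-month group 0, an imbalance that runs the same way as between 1 and 18 months. Without that library the shares were 60.6% for the higher set, 44.9% for the lower set and 46.6% for all. Without it, then, the lower set was close to the share over all abundant transcripts, and the higher set was above it. Wild type libraries 2 and 3 at 12 months are also the shallowest of the wild type, at 9732001 and 9604683 counts, so depth and that age cannot be told apart.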

How the data were processed

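RNA from whole mouse retina was sequenced in 15 libraries, 5 groups of 3, as poly(A) RNA per the labels' protocols. Tools listed in the submitters' processing notes, with no role, include RSEM 1.3.3, STAR 2.7.1a and Trim Galore 0.6.6. The authors deposited expected counts per Ensembl transcript, in which reads are divided between overlapping transcripts. The annotation release and strand setting are not given in the sources used here. Values were rounded to whole numbers.

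Size factors were median ratios over the 15 libraries. With factors from the 6 libraries alone, 3899 transcripts instead of 3859 reached 50 CPM. edgeR 4.0.16 (R 4.3.3) fitted group means for 15 libraries by quasi-likelihood with robust dispersion and its filter on low counts, which kept 53514 transcripts. Adjusted p-values (Benjamini-Hochberg) cover all of them. Standard errors are approximate, the fold change divided by the root of F. DESeq2 1.42.0 and limma 3.58.1 were alternatives. Differences between libraries and within kinds of library are on log2(CPM + 1), which understates changes of low values.

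Named transcripts were abundant ones with separated groups and the lowest p, 2 in each direction, and the 2 with the most reads. The tests on gene sums and gene lists could not be run, because 0 identifiers matched a gene name. The transcripts, lists and limits were chosen with earlier results of these data known. The test was tried on simulated counts whose dispersions were below the common dispersion of the fit (1.445) and which held no low-detection libraries. That trial therefore does not measure power or error in these data.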

Additional observations from a re-analysis of the deposited data

How the results depend on the processing

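For the transcripts with separated groups and for the calls, 20 alternative settings were run. Scaling on the 6 libraries alone and library detection as a term were chosen after seeing the data. Of 96 values for the 6 named transcripts, 89 kept their direction and side of the threshold, 7 newly passed it and 0 turned direction. Named transcripts with separated groups could hardly turn when libraries were left out, since separation fixes their direction. Of 47 counts, 23 were within 1.5 times the reported value and 24 were not, and unless a setting changes the number of transcripts or libraries the cause was not tested. Abundant transcripts called were 9 with DESeq2, and 1 when the limit was 20 CPM, which takes in ENSMUST00000152103. Leaving out 1 library gave 0 to 15. Over all transcripts, the calls were 785 with DESeq2, 3 with limma voom, 3 without the low-detection libraries, and 0 on the 6 libraries alone, with no filter, with a minimum of 50 CPM or with library detection as a term. Leaving out 1 library gave 0 to 221: 221 without replicate 1 at 1 month, 5 without replicate 1 at 18 months, 2 without replicate 3 at 1 month, and 0 without replicate 2 at 1 month or replicate 2 or 3 at 18 months. Separated transcripts were 1884 at a limit of 20 CPM, 419 at 100 CPM, 62 with whole counts, and 3348 without the low-detection libraries, where 1 library faces 2. Leaving out 1 library, which by itself makes separation easier, gave 1002 to 2091: 2091 without replicate 1 at 1 month and 1878 without replicate 1 at 18 months.

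The replicate block left 0 calls over all transcripts and 0 among the abundant ones. In that fit 526 abundant transcripts (13.6%) had p under 0.05 in edgeR's test before adjustment, against 5.86% of all tested. Pairing by replicate number was checked between 1 and 18 months only, over the abundant transcripts. Deviations of same-numbered libraries correlated at 0.00603, -0.0128 and 0.0105 for replicates 1, 2 and 3, and 0 of the 3 was above 0.1. Other ages were not checked, and the 2 transcripts with the most reads were lowest in replicate 1 at 1, 6 and 12 months. The alternatives listed for gene sums were not run, because no identifier matched a gene.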
